A study of Mus musculus with 13 samples.

Results

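The absorptive colonocytes described here are epithelial cells of the colon marked by Cyp2c55, a cytochrome P450, by Tmigd1, an adhesion protein of the brush border, and by Slc51a, a subunit of the basolateral exporter of bile acids and organic solutes. They were chosen from the unique molecular identifier (UMI) counts of 13 single-cell RNA-seq (scRNA-seq) libraries. A barcode was taken when it had 500 or more UMIs, 200 or more genes, a mitochondrial share of UMIs under 25%, at least 10 UMIs of Epcam, Krt8 and Krt18 together and none of Ptprc. It also needed at least 5 UMIs of Cyp2c55, Tmigd1 and Slc51a together, more of these than of Clca4b, Tgm3 and Atp12a together, and under 10 of Muc2. Of 118892 barcodes past the depth filters, 32247 were epithelial and 2690 met the whole rule, with 11 of the 2690 in colon tumors and the rest in adjacent mucosa. From 3 C57BL/6J mice there were 10 libraries of colon tumors and 3 of the mucosa next to them. All were of genotype ApcMin/+; p16cis/cis and all had the supplemented diet, enriched in folic acid, vitamin B12, choline and betaine, so every group carries both alleles and the diet. Mouse A was 24 weeks old and gave 1 mucosa and 4 tumor libraries, mouse B was 23 weeks old and gave 1 and 2, and mouse C was 20 weeks old and gave 1 and 4. No library of a control diet or of a mouse without the alleles was analysed here. Mucosa was taken apart with EDTA and TrypLE and tumors with a tumor dissociation kit, so dissociation and tissue cannot be told apart.

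Absorptive colonocytes line the surface and upper crypt of the large intestine, where they take up salt, water and short-chain fatty acids and exchange bicarbonate for chloride with the help of carbonic anhydrases. They oxidize butyrate as a main fuel, and they detoxify dietary and bacterial compounds with cytochromes P450, carboxylesterases, and sulfo- and glucuronosyltransferases. Bile acids that escape the ileum reach them as well. Along the gut, posterior Hox genes such as Hoxa13 and Hoxb13 mark the distal end.

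Levels below are UMIs of a gene per 1e6 UMIs (CPM), summed over the named barcodes of a library. They come from 3′ counting and are not divided by gene length. The mucosa libraries held 84883382 to 116133079 UMIs and the tumor libraries 57221300 to 93157039. The chosen colonocytes had a median of 9781, 14054 and 17367 UMIs in mice A, B and C, and 6.56% to 6.97% mitochondrial UMIs. Of the 2690 barcodes, 101 (3.75%) also occurred in another library and 0 were chosen in 2 libraries. Of the same 2690, 644 exceeded 2 times the median UMIs of the chosen barcodes of their library or held at least 2 UMIs of immune markers, and these possible doublets were kept. The labels call 7 libraries female and 6 male, also within one animal, whereas Xist had 1 to 10 UMIs per library and Y-linked genes stood at 105 to 129 CPM in all 13, so the labels of the 7 went against the data and sex was not used. Since the rule rests on measured values, comparisons with the cells it set aside are description with no test. At its edge, barcodes with a summed count of 5 and of 4 were alike in Car1 in both mouse A (12871 against 12865 CPM) and mouse B (13765 against 13135 CPM). In mouse C, with only 5 and 6 such barcodes, Car1 was 2750 CPM just inside and 490 CPM just outside.

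The chosen colonocytes were common in the mucosa of mice A and B, scarcer in that of mouse C and nearly missing from tumors. They made up 18.4% of the epithelial barcodes of mouse A (1433 of 7808; exact 95% binomial interval 17.5% to 19.2%), 20.3% of those of mouse B (1157 of 5690; 19.3% to 21.4%) and 3.41% of those of mouse C (89 of 2613; 2.74% to 4.17%). The mean over the mucosa libraries was 14.0% ± 9.25 (SD, n = 3), with mouse C far below the other two. In tumors the share ran from 0% to 0.412%. The 11 tumor barcodes were 3 in tumor 5, 6 in tumor 6, 1 in tumor 7 and 1 in tumor 10, and the 6 tumors with 0 could hold shares of up to 0.139% to 0.262% by the limit of 3 counts, or 0.171% to 0.322% by the upper bound of the exact interval. With each barcode thinned to 4000 UMIs, the share was 14.0%, 14.8% and 2.11% in mice A, B and C, and 3 tumor barcodes were left. Thinning left out 1777 to 3194 shallower barcodes of a mucosa library and 3037 to 5149 of a tumor library. Goblet barcodes, those with at least 10 Muc2 UMIs, were 28.9%, 24.96% and 55.1% of the epithelium of mice A, B and C, whose epithelial barcodes held a median of 10657, 14964.5 and 24643 UMIs. With barcodes thinned to 4000 UMIs the goblet shares were 26.1%, 20.9% and 48.6%. Intervals cover counting error only.

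**Figure D1:**
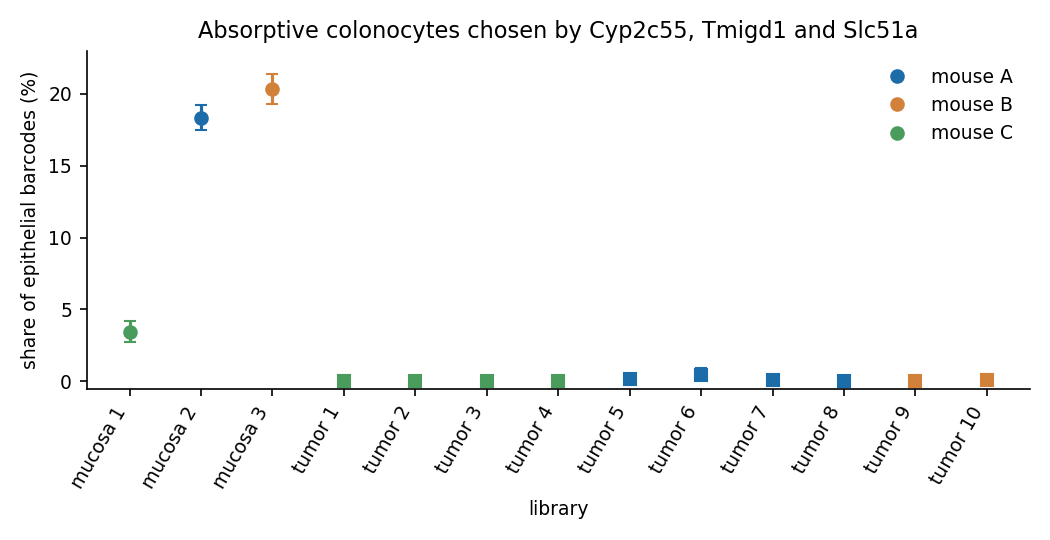
Share of epithelial barcodes (y axis, percent) that met the rule in each of the 13 libraries (x axis; circles mucosa, squares tumors), with exact 95% binomial intervals as bars and colors for the 3 mice. The mucosa of mice A and B stood at 18.4% and 20.3%, that of mouse C at 3.41%, and no tumor was above 0.412%.

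The genes that chose the cells were unequal among the mice. Cyp2c55 stood at 1608, 1615 and 703 CPM in mice A, B and C, and Tmigd1 at 675, 655 and 234 CPM. Slc51a was at 300.1 and 282 CPM in mice A and B but at 9.82 CPM in mouse C (22 UMIs, 6.15 to 14.9 CPM by an exact 95% Poisson interval). At least 5 Slc51a UMIs were seen in 1.12% of the barcodes of mouse C, against 28.9% in mouse A and 38.1% in mouse B, while at least 5 Cyp2c55 UMIs were seen in 91.0%, 86.2% and 92.4% of those of mice C, A and B.

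Of the other marker genes of these cells, Car1 divided the mice and Ces2c did not to the same degree. Car1, a cytosolic carbonic anhydrase that turns carbon dioxide into bicarbonate, led the abundant genes of mice A and B once mitochondrial and ribosomal protein genes were left aside, but not those of mouse C. It stood at 37326, 36171 and 2616 CPM in mice A, B and C. Ces2c, a carboxylesterase that splits drug and lipid esters, was at 512, 481 and 334 CPM. In single barcodes the median Car1 level was 28465, 27850 and 1447 CPM in mice A, B and C. The 95th percentile of mouse C, 9101 CPM, lay below the 25th percentile of mouse A (13492 CPM) and of mouse B (13684 CPM). Ces2c did not set these cells apart from the Clca4b colonocytes described below in mouse C, where it was higher in the latter (514 CPM), and it was at 354 and 247 CPM in those of mice A and B. Tmigd1, a gene of the rule, was also no lower in the Clca4b colonocytes of mouse C (239.7 CPM). In mouse C the label of Car1 colonocytes therefore holds only in part.

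Reg3b and Lypd8 were abundant as well, with Lypd8 above Car1 and Reg3b in mouse C. Reg3b, an antimicrobial lectin, stood at 31462, 18585 and 1024 CPM in mice A, B and C, and Lypd8, a surface protein that binds bacterial flagella, at 17061, 15339 and 17209 CPM. Lypd8 was level among the mice where Reg3b was not. The galectin genes Lgals4 (10445, 9389.7 and 9523 CPM) and Lgals3 (9432, 8311 and 8611 CPM) and Cd74, the MHC class II invariant chain (4873, 4615 and 5448 CPM), were also among the 25 most abundant and varied little. Phgr1, a gene of mature colonocytes, was at 5985, 6186 and 9949.9 CPM.

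Markers of Clca4b colonocytes, the other absorptive kind, were the most abundant of those of other cells in the chosen barcodes. These 9 genes summed to 3589, 2317 and 6396 CPM in mice A, B and C, against 19236, 12162 and 19427 CPM in Clca4b colonocytes, with none at 0 and with Saa1 the highest in mouse C. They include Clca4b, Tgm3 and Atp12a, genes used to divide these kinds, so the choice of cells partly fixed this contrast. The 10 crypt and transit-amplifying markers summed to 419, 459.7 and 343 CPM, with Lgr5 at 0 in mouse C. The 12 goblet markers summed to 675, 395 and 249 CPM in mice A, B and C (highest Agr2, with Ang4 at 0 in mice A and C), against 61521 to 67179 CPM in goblet barcodes. They include Muc2, limited in the chosen barcodes and required in goblet barcodes, so this contrast was partly fixed too. The 8 tuft markers summed to at most 3.6 CPM, with Il25 at 0 throughout, and the 8 of stroma and endothelium to at most 3.8 CPM, with Col1a2, Col3a1 and Cdh5 at 0 throughout. The 11 markers of T and intraepithelial lymphocytes summed to 43.3, 41.5 and 0.9 CPM, against at least 26527 CPM in barcodes with Ptprc, and in mouse C Cd3d, Cd3e and Cd3g were at 0. The 11 myeloid markers summed to 39.0, 34.5 and 66.1 CPM. The 8 plasma and B cell markers reached 760 and 558 CPM in mice A and B, mostly Igkc, and 6.2 CPM in mouse C. The 10 enteroendocrine markers summed to 209, 41.2 and 4.5 CPM and the 5 erythrocyte genes to 750, 1994 and 22.3 CPM. Car1 was also counted in barcodes with Ptprc, at 662 CPM in the immune barcodes of mouse A, 217 CPM in those of mouse B and 0.374 CPM in those of mouse C. In the same barcodes of mice A, B and C, Reg3b stood at 1582, 263 and 3.93 CPM and Fabp2 at 142, 36.7 and 9.16 CPM. Whether this was free RNA, and its part in the results below, was not tested.

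Some genes that carry bile acids across the cell were far lower in mouse C than in mice A and B, which were closer to each other. Slc10a2, the apical transporter that takes bile acids up from the lumen, stood at 194 CPM in mouse A and 231 CPM in mouse B but at 7.14 CPM in mouse C (16 UMIs, 4.08 to 11.6 CPM). Fabp6, the cytosolic bile acid binding protein, stood at 777 and 1528 CPM against 29.9 CPM (67 UMIs, 23.2 to 37.97 CPM). Slc51b, a subunit of the basolateral bile acid exporter, was at 699, 629.8 and 353 CPM. Nr1h4, the nuclear bile acid receptor, was at 175, 185 and 85.2 CPM. The pumps Abcc3 (119.8, 142 and 105 CPM) and Abcb1a (349, 424 and 209 CPM) varied less. Of 10 genes of bile acid and organic solute transport measured besides Slc51a, 3 were at least 2-fold lower in mouse C than in both other mice (Slc10a2, Fabp6 and Nr1h4) and 0 were higher, beside 2.46% and 2.95% of all genes measured. Of the 3, 2 reached 20 CPM on both sides, and Slc10a2 was under it in mouse C. In mice A, B and C, 89.6%, 92.9% and 53.3% of all epithelial Slc10a2 UMIs and 56.0%, 73.3% and 6.56% of those of Fabp6 lay in the chosen colonocytes, which held 16.8%, 18.5% and 3.26% of all epithelial UMIs.

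The promoters of Cyp2c55 and Slc51a, whose UMIs chose the cells, and of Slc10a2 and Fabp6, which were lower in mouse C, are shown to set their sequence beside their levels. Each runs from 250 bases before the start to 50 after it, 5′ to 3′ on the strand of the gene, from RefSeq on GRCm38.p6. Capitals mark words searched on both strands: CAAAGTC, a core bound by HNF4 factors, TTTATG, a core of CDX sites, and TATAAA, the TATA box. The windows are chr19:39006769-39007068 on the plus strand for Cyp2c55, chr16:32487830-32488129 on the minus strand for Slc51a, chr8:5105238-5105537 on the minus strand for Slc10a2 and chr11:43601513-43601812 on the minus strand for Fabp6.
Cyp2c55: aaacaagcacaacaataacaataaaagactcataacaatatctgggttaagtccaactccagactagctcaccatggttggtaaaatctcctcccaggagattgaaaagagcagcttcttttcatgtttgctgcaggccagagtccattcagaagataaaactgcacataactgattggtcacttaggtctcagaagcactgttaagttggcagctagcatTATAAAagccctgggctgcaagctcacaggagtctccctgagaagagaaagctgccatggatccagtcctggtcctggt
Slc51a: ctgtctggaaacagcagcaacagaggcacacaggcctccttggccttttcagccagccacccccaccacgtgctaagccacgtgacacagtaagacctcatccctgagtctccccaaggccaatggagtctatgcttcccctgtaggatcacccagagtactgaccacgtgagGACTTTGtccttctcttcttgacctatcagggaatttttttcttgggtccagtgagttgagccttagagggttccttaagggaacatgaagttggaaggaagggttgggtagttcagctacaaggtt
Slc10a2: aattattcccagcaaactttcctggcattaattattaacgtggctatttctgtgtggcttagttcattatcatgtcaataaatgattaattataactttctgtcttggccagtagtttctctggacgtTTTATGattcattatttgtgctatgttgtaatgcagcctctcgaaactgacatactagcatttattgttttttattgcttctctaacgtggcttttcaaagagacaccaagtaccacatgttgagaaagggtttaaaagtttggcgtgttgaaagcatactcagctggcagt
Fabp6: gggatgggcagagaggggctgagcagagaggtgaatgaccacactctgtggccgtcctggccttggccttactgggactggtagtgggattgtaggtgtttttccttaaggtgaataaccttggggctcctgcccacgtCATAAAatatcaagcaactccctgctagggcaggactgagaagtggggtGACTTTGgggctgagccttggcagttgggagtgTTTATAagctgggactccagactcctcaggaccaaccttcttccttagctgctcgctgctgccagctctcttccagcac
Cyp2c55 holds TATAAA at position -29 from the start. Slc51a holds CAAAGTC, read on the opposite strand, at -77, and Slc10a2 holds TTTATG at -122. Fabp6 holds all of them on the opposite strand, TTTATG at -111, CAAAGTC at -62 and TATAAA at -29. Of 32851 promoter windows of this length, 4.44% hold CAAAGTC, 11.9% TTTATG and 13.6% TATAAA. Of the 18 bile acid and organic solute transport genes with a window, 2 held CAAAGTC, 5 TTTATG and 5 TATAAA. Over the 27025 genes with a window, 5.0% held CAAAGTC, 13.6% TTTATG and 15.7% TATAAA in at least 1 window. A match of letters describes the window and is no binding site. Of the factors, Hnf4a stood at 130.1, 179 and 215 CPM in the chosen colonocytes of mice A, B and C, Cdx2 at 267, 263 and 248 CPM and Cdx1 at 146, 129 and 127 CPM.

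The chosen colonocytes of mouse C differed from those of mice A and B in other groups too, although the same rule picked them. Some differences also lay outside the chosen cells. In other epithelial barcodes Reg3b stood at 13647, 8574 and 1037 CPM in mice A, B and C and Car1 at 2025, 1525 and 80.0 CPM. In Clca4b colonocytes S100a6 stood at 6800, 8674 and 15005 CPM and Scnn1a at 39.4, 50.7 and 140.9 CPM. Aqp4, Hoxa13 and Hoxb13 went the other way in Clca4b colonocytes, lowest in mouse C. Of 5010 genes at 20 CPM or more, 148 (2.95%) were at least 2-fold higher in mouse C than in each of the other two and 123 (2.46%) at least 2-fold lower. Mouse B differed from mouse A by that much in 11 (0.22%) and 13 (0.259%). With possible doublets left out these counts for mouse C were 253 and 229. With 1 mucosa library per mouse and 89 barcodes in mouse C, the mouse, its library and its age cannot be told apart, and there is no test. A gene that reached 20 CPM only on the side where it was high had its direction fixed by that minimum, so beside most list counts the number that reached it on both sides is given. Ratios are log2 ratios with 1 CPM added to each level, averaged over the comparisons with A and with B.

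Low-level Hox genes differed in mouse C. Hoxa13 stood at 5.03, 3.94 and 45.5 CPM in mice A, B and C, and Hoxb13 at 11.9, 17.2 and 53.6 CPM. Hoxa10 (2.36, 3.26 and 24.99 CPM) and Hoxa9 (3.42, 3.54 and 20.5 CPM) went the same way, and Hoxb7 the other way at 29.02, 36.00 and 8.93 CPM. Of 7 Hox genes measured, only Hoxb9 (48.2, 47.9 and 24.5 CPM) reached 20 CPM both in mouse C and in mice A and B, so no direction is given for the group. Hoxa13 rests on 102 UMIs in mouse C.

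Salt and water transport was split. Aqp4, a basolateral water channel, stood at 159, 151 and 686 CPM, a log2 ratio of 2.14. Scnn1a, the alpha subunit of the epithelial sodium channel, was at 9.20, 8.33 and 55.3 CPM, the apical chloride and bicarbonate exchanger Slc26a3 at 144, 166 and 395 CPM and the chloride channel Clcn2 at 80.4, 96.4 and 202 CPM. These were the 4 of 33 genes of the list that were at least 2-fold higher in mouse C, 3 of them over the minimum on both sides. The 4 lower ones, of which only Car1 was over it on both sides, were Car1, with a log2 ratio of -3.81, the chloride loader Slc12a2 (30.9, 30.5 and 5.80 CPM), the potassium channel subunit Kcne3 (31.6, 36.3 and 14.7 CPM) and the cGMP-dependent kinase Prkg2 (43.6, 46.5 and 12.9 CPM). Slc9a3, the apical sodium and proton exchanger, stood at 141, 199 and 147 CPM.

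Defense genes were split as well, with 5 of 17 higher and 4 lower in mouse C, of which 4 and 2 were over the minimum on both sides. The Clca4b colonocyte markers were also at their highest in mouse C, at the 6396 CPM given above against 3589 and 2317 CPM, with 3 of 6 measured higher there (Saa1, Clca4a and Aqp4). Their part in these differences was not tested. Reg3b, with a log2 ratio of -4.56, and Reg3g, another lectin of the family (2938, 1946 and 360.2 CPM), were lower, as were Saa3 and Retnlb. Saa1, an acute phase apolipoprotein, was higher at 1124, 767 and 2927 CPM. Duox2, an oxidase that releases hydrogen peroxide at the cell surface, was at 91.3, 136 and 312 CPM, and its maturation factor Duoxa2 at 123, 149 and 341 CPM. Of 27 genes of MHC class II and the interferon response, 4 were higher, each over the minimum on both sides, and 0 lower, among them Isg15 (220.3, 275 and 633 CPM), Ifit2 (58.4, 67.6 and 180.3 CPM) and the GTPase Gbp2 (35.5, 42.8 and 146 CPM). S100a6, a calcium-binding protein, was at 2542, 2842 and 9676 CPM and the thioredoxin Txn1 at 2656, 3194 and 7891 CPM. The 25 largest rises of mouse C also held genes of mitochondrial and ribosomal proteins. Among them were mt-Nd4l (log2 ratio 1.83), Ndufa1 (1.58), Atp5md (1.55), Tomm7 (1.53) and Rps28 (1.49). What underlies these rises was not tested.

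Among enzymes, more were lower than higher in mouse C. Of 40 measured genes of xenobiotic and steroid metabolism, 8 were at least 2-fold lower and 4 higher, of which 4 and 2 were over the minimum on both sides. Aldh1a1, a retinaldehyde dehydrogenase, stood at 246, 247 and 71.4 CPM, the aldo-keto reductase Akr1c19 at 324, 395 and 136 CPM and the glutathione transferase Gsta1 at 439, 423 and 201 CPM. Hsd11b2, which inactivates glucocorticoids, was one of the higher ones at 86.4, 89.5 and 212 CPM. Of 38 genes of fatty acid oxidation and short-chain fatty acid use, 3 were lower, 1 of them over the minimum on both sides, and 0 higher. The fatty acid binding protein Fabp2 stood at 2392, 2491 and 1941 CPM. Genes of plasma and red blood cells were also lower in mouse C, with Igkc at 583, 448 and 3.57 CPM and Hbb-bs at 453, 1425 and 16.96 CPM, and their part in the other differences was not tested.

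**Figure D2:**
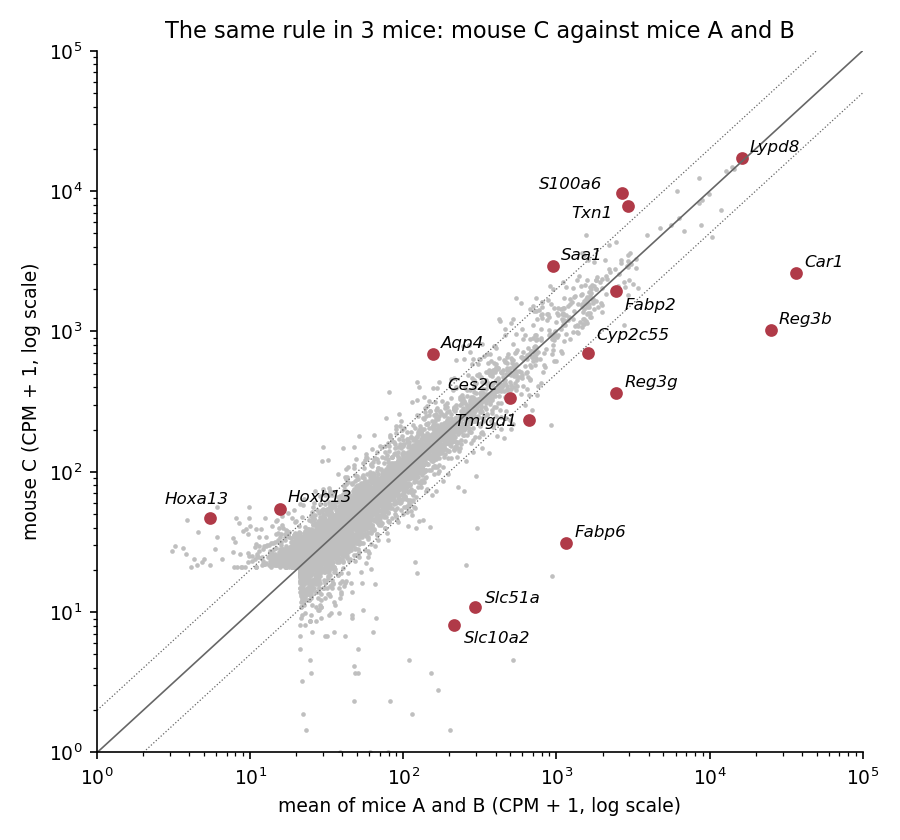
Level of each gene in the chosen colonocytes of mouse C (y axis, CPM + 1, log scale) against the mean of mice A and B (x axis, CPM + 1, log scale), for genes at 20 CPM or more on either axis, with the line of equality and dotted lines at 2-fold. Car1, Reg3b, Fabp6, Slc10a2 and Slc51a (a gene of the rule) lie far below the line, S100a6, Txn1, Saa1, Aqp4, Hoxb13 and Hoxa13 above it, and Lypd8 near it.

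The nearest other cells were absorptive colonocytes chosen among the same epithelial barcodes by the mirror rule, with at least 5 UMIs of Clca4b, Tgm3 and Atp12a together and more of these than of Cyp2c55, Tmigd1 and Slc51a. There were 402, 209 and 66 of these Clca4b colonocytes in the mucosa of mice A, B and C. Of 4890 genes at 20 CPM or more, 101 (2.07%) were at least 2-fold higher in the chosen colonocytes in all 3 libraries and 102 (2.09%) at least 2-fold lower. In mice A and B alone the counts were 211 (4.31%) and 212 (4.33%) of 4896. The rule divided these cells by their genes, so the counts describe that division.

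Enzymes of detoxification were more often higher than lower beside Clca4b colonocytes. Of 41 measured genes of xenobiotic and steroid metabolism, 11 were at least 2-fold higher in all 3 libraries and 3 lower, and the median log2 ratio was 0.63 against 0.23 over all genes. Of these, 6 and 1 reached 20 CPM in both kinds as a mean over the libraries, and 2 and 0 in every library. In mice A and B alone 12 were higher and 5 lower. Aldh1a1 stood at 27.3, 10.8 and 28.9 CPM in the Clca4b colonocytes of mice A, B and C, a log2 ratio of 2.93 ± 1.57 (mean and SD, n = 3). Akr1c19 was at 63.2, 41.4 and 18.9 CPM there, a log2 ratio of 2.78 ± 0.44. Cyp2c65, a relative of Cyp2c55, was at 282, 225 and 119 CPM in the chosen colonocytes against 37.8, 13.7 and 45.5 CPM, and the steroid dehydrogenase Hsd3b3 at 322, 263 and 176 CPM against 56.01, 41.7 and 55.5 CPM. The 3 lower genes were Cyp2d9, Cyp2d10 and Cyp2d12, with Cyp2d10 at 14.4, 14.3 and 38.8 CPM against 148, 141 and 101 CPM, while Cyp2d26 of the same family was higher. Genes of the Cyp2c, Cyp2d, Ces1, Ces2 and Ugt2b families have close copies, so the division of reads among them is uncertain.

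Genes of fatty acid oxidation and short-chain fatty acid use were also more often higher. Of 37 measured genes, 9 were at least 2-fold higher and 1 lower, with a median log2 ratio of 0.90, and 7 and 0 of these reached 20 CPM in both kinds as a mean and 5 and 0 in every library. In mice A and B alone 14 were higher, 10 of them over 20 CPM in both kinds, beside 4.31% of all genes. Among enzymes of beta oxidation, Acads, which acts on short chains, had a log2 ratio of 1.31 ± 0.22, Hadhb 1.08 ± 0.07, Hadh 1.21 ± 0.24 and Acaa2 1.64 ± 0.18. The peroxisomal thiolase Acaa1b varied more, with log2 ratios of 2.70 and 4.43 in mice A and B and 3 UMIs against 0 in mouse C. Slc16a3, a lactate exporter, was the lower gene, at 12.9, 8.44 and 19.2 CPM against 34.3, 18.3 and 51.04 CPM.

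**Figure D3:**
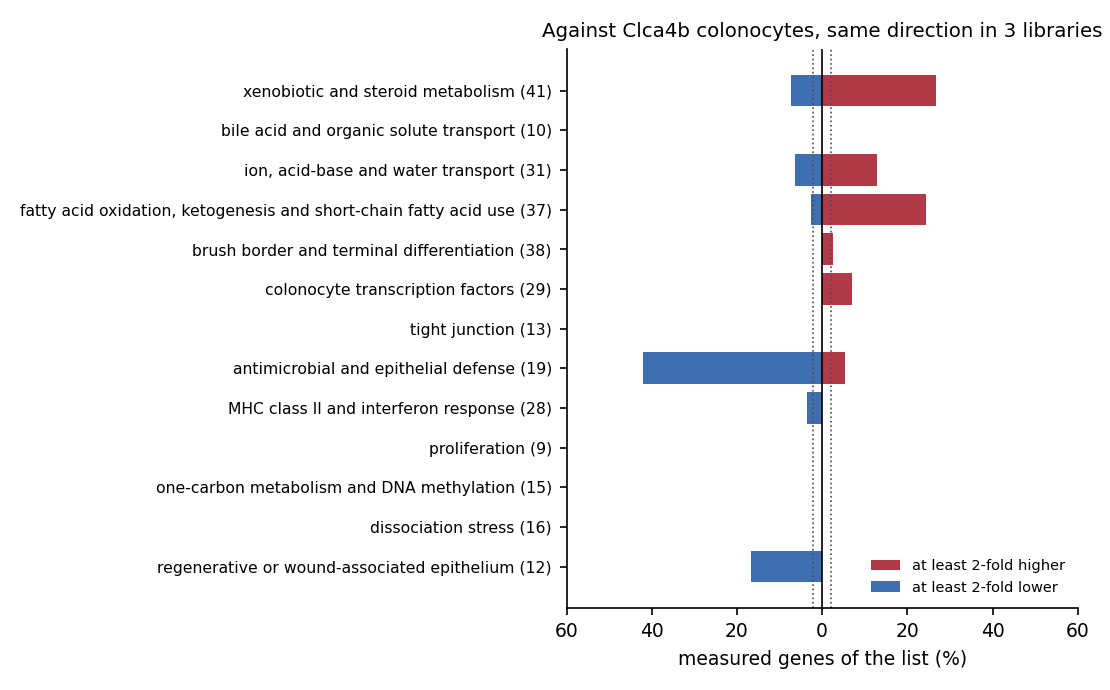
Percent of the measured genes of each gene list (x axis; number measured in brackets) that were at least 2-fold higher (right) or lower (left) in the chosen colonocytes than in Clca4b colonocytes in all 3 mucosa libraries, with dotted lines at 2.07% and 2.09%, the shares over all genes. Among the longer bars are xenobiotic metabolism (11 of 41) and fatty acid use (9 of 37) to the right and defense genes (8 of 19) to the left, and bars include genes that reached 20 CPM in 1 kind only.

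Car1 was higher in the chosen colonocytes, by less than 2-fold in mouse C, and Car4 lower. Car1 stood at 4737, 1846 and 1653 CPM in the Clca4b colonocytes of mice A, B and C, a log2 ratio of 2.64 ± 1.84, with 0.66 in mouse C alone. The membrane-bound carbonic anhydrase Car4 went the other way, at 801, 779 and 1315 CPM against 3771, 1915 and 5235 CPM, and so did the water channel Aqp8, at 551, 631 and 1035 CPM against 1674, 1055 and 2192 CPM, by less than 2-fold in mouse B. Aqp4 had no single direction, at 159, 151 and 686 CPM against 172, 282 and 124 CPM. Of 31 transport genes, 4 were at least 2-fold higher in all 3 libraries (the anion exchanger Slc4a2, Cftr, Aqp11 and Prkg2), 1 of them over 20 CPM in both kinds in every library, and 2 lower (Car4 and Scnn1a). Car4 was over it in every library and Scnn1a only as a mean, at 9.20, 8.33 and 55.3 CPM in the chosen colonocytes. In mice A and B alone 7 were higher, 3 of them over 20 CPM in both kinds, and 3 lower. The bile acid list gave 0 of 10 in either direction over the 3 mice, and 3 of 10 higher in mice A and B (Slc10a2, Abcc3 and Abcb1a), 2 of them over 20 CPM in both kinds. Slc10a2 was at 20.9, 12.6 and 3.33 CPM in the Clca4b colonocytes, with 3 UMIs in mouse C. Fabp6 was level in mouse A (777 against 777 CPM), higher in the chosen colonocytes of mouse B (1528 against 355 CPM) and lower in those of mouse C (29.9 against 166 CPM).

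Defense genes were more often lower than in Clca4b colonocytes. Of 19 measured, 8 were at least 2-fold lower and 1 higher, with a median log2 ratio of -0.92, and 4 and 0 of these reached 20 CPM in both kinds in every library. In mice A and B alone 9 of 20 were lower and 2 higher. Saa1 stood at 9381, 4999 and 9336 CPM in the Clca4b colonocytes, a log2 ratio of -2.48 ± 0.72, and S100a8, a subunit of calprotectin, at 209, 179.8 and 322 CPM against 4.35, 2.70 and 36.2 CPM in the chosen colonocytes. The chemokine Cxcl5 was at 68.1, 47.1 and 179 CPM there against 2.11, 0.394 and 5.36 CPM, and Nos2, the inducible nitric oxide synthase, at 89.5, 91.7 and 324 CPM against 40.5, 37.2 and 40.6 CPM. The peptidoglycan recognition protein Pglyrp1 had a log2 ratio of -1.55 ± 0.31. Saa3 was the higher gene, at 59.7, 46.1 and 15.2 CPM against 6.70, 2.88 and 3.33 CPM. Reg3b had no single direction: it was higher in the chosen colonocytes of mice A and B and lower in those of mouse C, at 1024 against 1704 CPM. Saa1 was among the markers listed for Clca4b colonocytes, as was Ly6g, at 1447, 971 and 610.3 CPM in them against 59.5, 61.3 and 60.3 CPM. The myeloid markers summed to 399, 280.5 and 356 CPM in the Clca4b colonocytes, against 39.0, 34.5 and 66.1 CPM in the chosen ones, and the erythrocyte genes to 14987 CPM in those of mouse C.

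Of 29 colonocyte transcription factors measured, 2 were at least 2-fold higher, both over 20 CPM in both kinds as a mean and 1 in every library, and 0 lower, beside 2.07% and 2.09% of all genes. Cdx2, a homeobox factor of intestinal identity, was at 96.2, 120.1 and 97.7 CPM in Clca4b colonocytes, a log2 ratio of 1.31 ± 0.17, and Isx, a homeobox repressor of carotenoid uptake, had 2.06 ± 1.08. Hnf4a had 0.03 ± 0.04. Hoxb13 was lower, at 11.9, 17.2 and 53.6 CPM against 299, 405 and 109 CPM, and Hoxb9 higher, at 48.2, 47.9 and 24.5 CPM against 22.5, 17.6 and 5.55 CPM. Btnl1, a butyrophilin-like protein that acts on gamma delta intraepithelial T cells, stood at 75.01, 73.02 and 46.4 CPM against 18.2, 20.9 and 22.2 CPM. In either direction, 0 of 16 dissociation stress genes and 0 of 13 tight junction genes reached 2-fold in all 3 libraries.

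**Figure D4:**
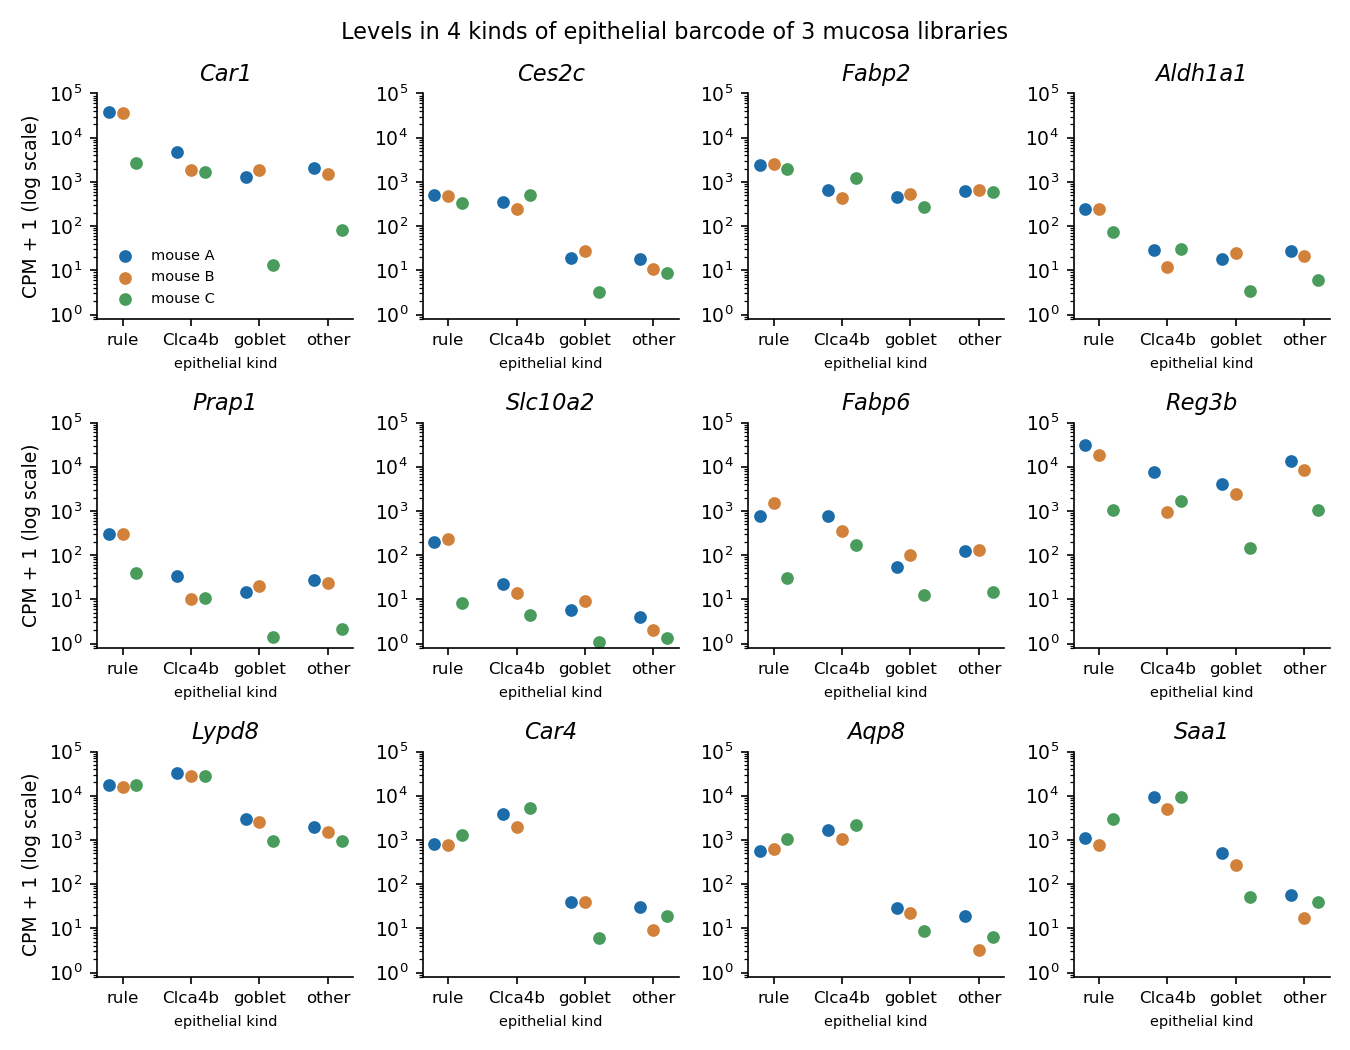
Levels of 12 genes (y axis, CPM + 1, log scale) in the chosen colonocytes (rule), Clca4b colonocytes, goblet and other epithelial barcodes (x axis) of the mucosa of mice A, B and C (colors). Car1, Prap1 and Slc10a2 are highest in the chosen colonocytes of mice A and B, and Lypd8, Car4, Aqp8 and Saa1 in Clca4b colonocytes of each mouse.

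Against goblet and all other epithelial barcodes, the chosen colonocytes had higher levels of most brush border genes. Of 5878 genes, 652 (11.1%) were at least 2-fold higher than in goblet barcodes in all 3 libraries and 1047 (17.8%) lower. Of 5984 genes, 735 (12.3%) were higher than in other epithelial barcodes and 1357 (22.7%) lower. Of 39 measured brush border and differentiation genes, 36 were higher than in other epithelial barcodes and 1 lower (Dpp4), with a median log2 ratio of 2.62. Of the 28 that reached 20 CPM in both kinds as a mean over the libraries, 26 were higher and 0 lower. Of proliferation genes and of Wnt target and crypt base genes, 9 and 3 reached that mean in both kinds, and all of these were at least 2-fold lower in the chosen colonocytes. Mki67, a marker of cycling cells, was at 28.8, 36.1 and 37.9 CPM against 245, 204 and 157 CPM, and Slc12a2 at 30.9, 30.5 and 5.80 CPM against 273, 316 and 334 CPM. Slc9a3 stood at 141, 199 and 147 CPM against 3.71, 1.46 and 1.08 CPM. In mice A, B and C, 80.3%, 83.3% and 59.96% of all epithelial Car1 UMIs were in the chosen colonocytes, as were 75.6%, 82.0% and 50.2% of those of Ces2c. For Reg3b the shares were 40.4%, 40.7% and 6.59%.

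Among the chosen colonocytes of mice A and B, those with more Car1 had higher levels of Gsta1 and Fabp2. Mki67 and Slc12a2 were lower in them, but were under 20 CPM where Car1 was highest, so that minimum fixed their direction. Barcodes of each library were ranked by Car1 CPM and divided in 4 bins, of 358 or 359 barcodes in mouse A and 289 or 290 in mouse B. From the lowest to the highest bin Car1 ran from 6862 to 74316 CPM in mouse A and from 7101 to 71100.0 CPM in mouse B. Of 5086 genes, 29 (0.57%) were at least 2-fold higher in the top bin than in the bottom one in both mice and 388 (7.63%) at least 2-fold lower. The bins also differed in depth and quality: the median depth was 6030 UMIs in the bottom and 10769.5 in the top bin of mouse A, and 8255 and 16136 in mouse B. The median mitochondrial share was 10.8% and 5.67% in mouse A, and 11.9% and 5.32% in mouse B. Their part in these differences was not tested, and a high share of Car1 UMIs itself lowers the CPM of every other gene.

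Of 14 measured proliferation genes, 13 were at least 2-fold lower in the top bin of both mice, but only 4 of the 14 reached 20 CPM in both bins, 3 of them among the lower ones. Plasma and red blood cell genes were lower in the top bin as well, 3 of 3 and 3 of 4 measured, with Igkc from 652 to 141 CPM in mouse A and from 2006 to 46.2 CPM in mouse B and Hbb-bs from 1214 to 288 CPM and from 1367 to 521 CPM, and their part in the other differences was not tested. Mki67 was at 77.4, 28.4, 14.2 and 7.21 CPM in the bins of mouse A and at 95.1, 40.8, 17.8 and 5.27 CPM in those of mouse B, lower at each step. Of 32 transport genes 5 were lower and 1 higher, and none of the 5 reached 20 CPM in the top bin as a mean of both mice. They were the chloride loader Slc12a2 (74.3 to 9.77 CPM in mouse A and 62.6 to 6.89 CPM in mouse B), the chloride channel Cftr (40.98 to 7.91 and 42.99 to 14.8 CPM), the potassium channel subunits Kcne3 (63.6 to 9.30 and 63.1 to 14.2 CPM) and Kcnq1, and the potassium channel Kcnn4. Of 14 tight junction genes 4 were lower, likewise under 20 CPM in the top bin as a mean of both mice, among them the pore-forming claudins Cldn2 (34.3 to 2.09 and 36.7 to 3.65 CPM) and Cldn15 (60.2 to 8.84 and 65.6 to 26.5 CPM). Hoxb13 ran from 38.5 to 1.86 CPM and from 50.98 to 3.65 CPM. Chgb, an enteroendocrine granule gene, was at 416 and 132 CPM in the bottom bins and at 2.56 and 0.608 CPM in the top ones.

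After Car1 itself, Gsta1 had the largest ratio among the ranked genes higher in the top bin. The ranking covers genes at 100 CPM or more and leaves out those of the rule. Gsta1 ran from 172 to 792 CPM in mouse A and from 157 to 766 CPM in mouse B. Mpst, a sulfurtransferase, ran from 239 to 891 CPM and from 223 to 749.9 CPM. Aldh1a1 ran from 134 to 351 CPM and from 109 to 393 CPM, Fabp2 from 1378 to 4308 CPM and from 1681 to 3943 CPM, and Sgk1, a kinase that raises sodium uptake, from 78.6 to 180.2 CPM and from 98.7 to 289.8 CPM. Reg3b peaked in between, in the bin next to the lowest, at 22266, 42286, 37842 and 21598 CPM in mouse A and 13165, 25342, 20430.1 and 14543 CPM in mouse B. In mouse C the bins held 22 or 23 barcodes, and Car1 reached 7103 CPM in the top one, about the level of the bottom bins of the other mice.

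**Figure D5:**
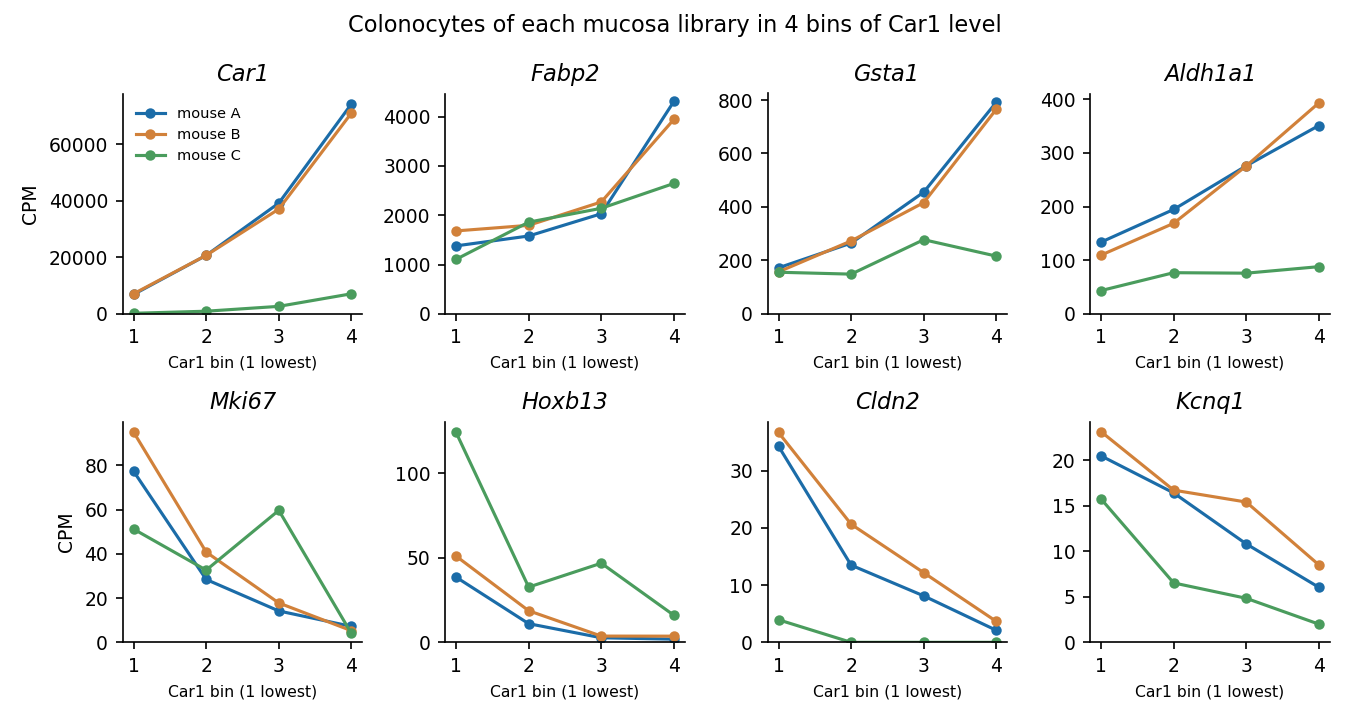
Levels of 8 genes (y axis, CPM, from 0) in the chosen colonocytes of each mucosa library divided in 4 bins by Car1 level (x axis, 1 the lowest), with lines for mice A, B and C. In mice A and B, Fabp2, Gsta1 and Aldh1a1 go up with Car1 and Mki67, Hoxb13, Cldn2 and Kcnq1 go down, and mouse C has the highest Hoxb13 in each bin and low Car1 throughout. The genes that go down were under 20 CPM in the top bin as a mean of mice A and B, so that minimum fixed their direction.

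In tumors the chosen colonocytes were too few for the planned comparison with mucosa, since no tumor library held 20 of them, nor 10, and their levels are given as they stand. The 3 barcodes of tumor 5 held Car1 at 12221 CPM, Reg3b at 20950 CPM, Slc10a2 at 182 CPM and Fabp6 at 891 CPM. The 6 of tumor 6 held Car1 at 2901 CPM, Saa1 at 10419 CPM and Car4 at 3345 CPM, with 0 UMIs of Slc10a2 and Fabp6. The single barcodes of tumors 7 and 10 had 26251 and 45119 UMIs, Car1 at 24266 and 14229 CPM and 0 UMIs of Reg3b. None of the 11 held a UMI of Ptn, a gene of the tumor epithelium in this series. Of the 11, 10 were possible doublets by the limits above, and the median mitochondrial share was 12.7% in tumor 5 and 17.4% in tumor 6.

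Whether genes of these colonocytes also differed between the tissues in other cells was asked in barcodes of the mirror rule. These are called Clca4b colonocytes in tumors too, with 42 to 242 per tumor and 66 to 402 per mucosa library. Whether those of tumors were the same kind of cell as those of mucosa was not tested. Their median depth was 8507.5 to 25331 UMIs in tumors and 8189 to 12713 UMIs in mucosa, and its part was not tested. The test between tissues was chosen after the data were seen. It compared Car1, Ces2c, Reg3b and Fabp2 between 10 tumors and 3 mucosa libraries by an exact two-sided permutation test of log2 levels over 286 arrangements, for which the smallest p is 0.00699. Tumors of one mouse share that mouse, so they are not fully independent. Ces2c stood at 354, 247 and 514 CPM in the mucosa of mice A, B and C and at 26.1 to 98.8 CPM (median 59.3) in tumors, with no overlap. The log2 difference of Ces2c was -2.63 (exact permutation p = 0.00699, adjusted over 5 genes 0.0175), lower in 10 of 10 tumors. Fabp2 stood at 661, 423 and 1224 CPM against 5.08 to 278 CPM (median 15.7), a difference of -5.07 with no overlap (exact permutation p = 0.00699, adjusted 0.0175). Car1 stood at 4737, 1846 and 1653 CPM against 435 to 2296 CPM (median 558), a difference of -1.82 (exact permutation p = 0.021, adjusted 0.035), and 9 of 10 tumors lay below every mucosa library, with tumor 6 above the mucosa of mice B and C. Reg3b (-1.32; exact permutation p = 0.343, adjusted 0.343) did not pass and overlapped between the tissues. Without possible doublets, over the 8 libraries with enough barcodes left, it passed (-5.77, adjusted exact permutation p = 0.0357), and the differences of Car1, Ces2c and Fabp2 became -2.88, -1.47 and -7.77. That p is the smallest that these 8 libraries allow. The immune markers of the doublet limit include S100a8, at 209, 179.8 and 322 CPM in the Clca4b colonocytes of the mucosa of mice A, B and C. Single Clca4b colonocytes may therefore have been left out too. Within mice A, B and C, the difference was -2.49, -1.93 and -1.29 for Car1, -2.46, -2.99 and -2.89 for Ces2c, -3.96, -4.98 and -6.60 for Fabp2, and -2.17, 1.09 and -2.31 for Reg3b. Without any one mucosa library the adjusted p of these 3 genes was 0.0505 to 0.152 in the exact permutation test, and with tumors summed per mouse it was 0.167, where 20 arrangements allow no p below 0.1. Car1 in immune barcodes of tumors was 0.485 to 2.26 CPM, below that of the mucosa of mice A and B, and its part was not tested. Fabp2 in immune barcodes was 0 to 1.07 CPM in tumors and 9.16 to 142 CPM in mucosa, likewise not tested. The differences of Fabp2 and Ces2c were not particular to Clca4b colonocytes. In other epithelial barcodes Fabp2 stood at 600 to 653 CPM in mucosa and 1.62 to 76.8 CPM in tumors. Ces2c stood there at 7.76 to 17.1 CPM and 0.324 to 2.60 CPM. Car1 overlapped between the tissues there, at 80.0 to 2025 CPM in mucosa and 17.2 to 256 CPM in tumors. In mouse C, tumors 1, 2 and 4 (125, 131 and 97.3 CPM) were above its mucosa (80.0 CPM) and tumor 3 (23.1 CPM) below. In the mucosa of mouse B, Car1 was about as high in goblet barcodes (1825 CPM) as in Clca4b colonocytes.

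Over all epithelial barcodes, Car1 stood at 7811, 8025 and 142 CPM in the mucosa of mice A, B and C and at 48.9 to 319 CPM in tumors (median 143), so the mucosa of mouse C lay within the range of the tumors. Ces2c stood at 114, 108 and 21.7 CPM against 1.93 to 11.97 CPM. With the chosen barcodes taken out, Car1 was at 1850.1, 1642 and 58.8 CPM in mucosa and at 37.5 to 292 CPM in tumors. In such sums fewer colonocytes and less RNA per colonocyte cannot be told apart.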

How the data were processed

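Single-cell 3′ libraries of 10 colon tumors and 3 samples of adjacent mucosa were used. The values are UMI counts per gene and barcode, deposited by the authors as raw matrices of 32285 genes without normalization. Per the submitters' processing notes they were made with Cell Ranger 6.0.0 on mm10; the study's methods name another version. Groups and animals came from the labels.

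Barcodes were chosen by raw counts as the report describes, summed per library and kind, and scaled to CPM. Genes at 20 CPM or more in the higher kind were compared as log2 ratios after adding 1 CPM, and counted when at least 2-fold in one direction in every library compared. The members and gene lists were chosen with earlier results of these data known. Named genes were the 25 most abundant and the 15 of largest ratio each way against each kind at 100 CPM or more, and genes of the lists; the genes named for mouse C and for the bins of Car1 level were chosen after their values were seen. Doublets were not removed; an alternative left out possible ones.

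The planned tumor against mucosa fit and its interaction with cell kind could not be run on so few tumor cells. An exact permutation test of 5 genes in Clca4b colonocytes, adjusted over all 5 by Benjamini-Hochberg, was added and checked on simulated data; 1 of the 5 is not reported here. Libraries of one group are separate tumors or mice; tumors share mice. As a block, the mouse pairs tumors with mucosa by the animal code of the labels; deviations of mucosa and tumor means correlated at -0.25, 0.16 and -0.31 in mice A, B and C over 4892 genes. Software was Python 3.11 with numpy 2.4.6, pandas 2.3.3, scipy 1.17.1 and matplotlib 3.10.9. Promoters came from RefSeq; those of Car1 and Aqp4 were not used here.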

Additional observations from a re-analysis of the deposited data

Results flagged for a closer look

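Tumor 6 stood apart from the other 9 tumors by a gap test on CPM in 3 of 6 sets of tumor values examined. These 6 sets were those that the choice of cells did not use. The limit of the test flags about 1 in 20 sets by chance for normally distributed values, which was not checked here. The test was not repeated on log2 levels, where the gaps can differ. The 3 sets come from the same barcodes. In its Clca4b colonocytes Car1 was at 2296 CPM (next 1047 CPM), Reg3b at 7818 CPM (next 3420 CPM) and Fabp2 at 278 CPM (next 66.0 CPM). Its share of chosen colonocytes, 0.412% of epithelial barcodes (next 0.175%), and Tmigd1 over all its epithelial barcodes, at 13.2 CPM (next 3.38 CPM), also stood apart. Tmigd1 was one of the genes that chose the cells, so these values overlap and are given as a description.

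In Clca4b colonocytes, Reg3b went in opposite directions between tumor and mucosa in different mice, and the difference between mice was not tested. It had a log2 ratio of tumor over mucosa of 1.09 in mouse B, -2.31 in mouse C and -2.17 in mouse A.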

How the results depend on the processing

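Of 228 alternative values, 196 stayed within the limit set for their kind. That meant the same direction and side of the threshold for a test, within 1.5 times for a count, and within the spread between libraries otherwise. Of the rest, 19 moved, 12 tests lost their call and 1 gained it. Only tests and log2 ratios could reverse, and 0 did, since counts and shares have no direction. All 19 alternatives for the shares of chosen barcodes were within their limit, but that limit could not show a change in tumors. The mean share there was 0.0733% with an SD of 0.132. Even a loss of every chosen tumor barcode would have stayed within that limit. Thinning lowered the tumor mean to 0.0202%. Leaving out 1 library cannot move a mean share by a full SD in either tissue. Apart from thinning, the summed count of 10 and the 10% mitochondrial limit for the shares of chosen barcodes, the alternatives were chosen after seeing the data. Against Clca4b colonocytes, the 101 higher and 102 lower genes became 65 higher with a pseudocount of 5 CPM, and 173 higher and 154 lower with no CPM minimum, which also gave 2154 lower than in goblet and 2677 lower than in other barcodes. The counts of mouse C became 313 higher and 528 lower with no minimum, 253 and 229 without possible doublets, and 192 lower with a summed count of at least 10.

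Leaving out 1 library at a time gave 117 to 211 higher and 124 to 212 lower than Clca4b colonocytes (211 and 212 without the mucosa of mouse C), 655 to 704 and 1062 to 1220 against goblet, and 741 to 838 and 1368 to 1454 against other barcodes. The mean share ran from 10.9% to 19.3% in mucosa and from 0.0357% to 0.0814% in tumors. Log2 differences in Clca4b colonocytes ran from -2.10 to -1.34 for Car1, -2.89 to -2.37 for Ces2c, -1.95 to -0.48 for Reg3b and -5.49 to -4.67 for Fabp2. For Car1, Ces2c and Fabp2 the adjusted p was above 0.05 without each mucosa library in turn, with 66 arrangements left.

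With tumors summed per mouse the differences were -1.72 for Car1, -2.64 for Ces2c and -4.78 for Fabp2 (adjusted exact permutation p = 0.167). Without possible doublets, Reg3b (-5.77) passed (adjusted exact permutation p = 0.0357, the smallest possible) over the 8 libraries left, with Car1 at -2.88, Ces2c at -1.47 and Fabp2 at -7.77. The doublet limit counts S100a8, so it may also leave out single Clca4b colonocytes, and the cause was not tested. With the replicate block, permuted within mouse over 75 arrangements, the differences were -1.90 for Car1, -2.78 for Ces2c, -5.18 for Fabp2 and -1.13 for Reg3b, with adjusted exact permutation p = 0.0444 for Car1, Ces2c and Fabp2 and 0.373 for Reg3b, and no call changed. Before adjustment, the exact permutation p of Car1, Ces2c and Fabp2 was 0.0267, the smallest that 75 arrangements allow. Over all 21 alternatives the adjusted p ran from 0.0152 to 0.167 for Car1, Ces2c and Fabp2 and from 0.0357 to 0.9 for Reg3b.

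Other settings of the tumor against mucosa fit within the chosen colonocytes (normalization, tool, filter, block and minimum number of cells) were not run, since no tumor library held 10 of them. The small number of barcodes in mouse C (89) and genes of few UMIs limit the precision.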
